A study of Mus musculus with 7 samples.

Results

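The genes described here encode the classical axon guidance ligands and receptors: class 3 to 7 semaphorins with their plexin and neuropilin receptors, ephrins with their Eph receptors, Slit proteins with their Robo receptors, and netrins with their Unc5 receptors. They were chosen by gene symbol alone, and 67 of the 23235 symbols in the deposited tables matched, 35 ligand genes and 32 receptor genes. RNA was sequenced in 7 libraries of cultured fetal kidneys from C57BL/6 mice. Beta-catenin, which carries the canonical Wnt signal to the nucleus, was activated in all 7. Of these, 3 were in addition E2-2 deleted, and the other 4 were E2-2 wildtype. E2-2 (gene symbol Tcf4) binds E-box motifs in DNA through a helix-loop-helix domain. Rudiments were taken at 10.5 days post coitum, the day on which the dams received tamoxifen by intraperitoneal injection (2 mg per 40 g of body weight), and were kept on membranes in medium with transferrin, insulin and selenium for 3 to 4 days. The labels do not give the promoter that drove recombination, the altered exons, the culture time of each library, or whether a library came from 1 kidney or from several. Kidneys without activated beta-catenin were not analysed here, so every level below is that of a kidney with the pathway switched on.

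Guidance proteins were named for steering growth cones, and the same ligands and receptors position cells, vessels and epithelial branches outside the nervous system. Semaphorins, secreted in class 3 and membrane-bound in classes 4 to 7, signal through plexins, and most class 3 members also need a neuropilin. Ephrins stay on the cell surface and signal in both directions through Eph receptor tyrosine kinases. Slit proteins are secreted and repel cells that carry Robo receptors, and in the kidney Slit2 and Robo2 restrict where the ureteric bud grows out. Netrins are laminin-like proteins that attract through Dcc and repel through Unc5 receptors.

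FPKM (fragments of RNA counted per unit of transcript length and of library size) is a level per length, so it can be set side by side between genes. Nrp1 and Plxnb2 had the highest levels of the 67 genes, with means over the 7 libraries of 87.3 and 80.5 FPKM. The semaphorin and vascular receptor gene Plxnd1 (54.6), the netrin receptor gene Unc5b (52.1) and the ephrin gene Efnb2 (43.1) followed. In 7 genes the mean was below 1 FPKM. Ntn5 and Robo3 were at most at 0.0964 and 0.0925 FPKM in any library, on at most 3 and 9 inferred fragments, and Ntn5 was listed at 0 in 3 libraries. Epha6, Plxnb3 and Epha10 had means of 0.0891, 0.134 and 0.240 FPKM. Epha5 and Unc5d lay just under the limit, at 0.757 and 0.856 FPKM. These 7 were not tested, and the other 60 were.

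**Figure D1:**
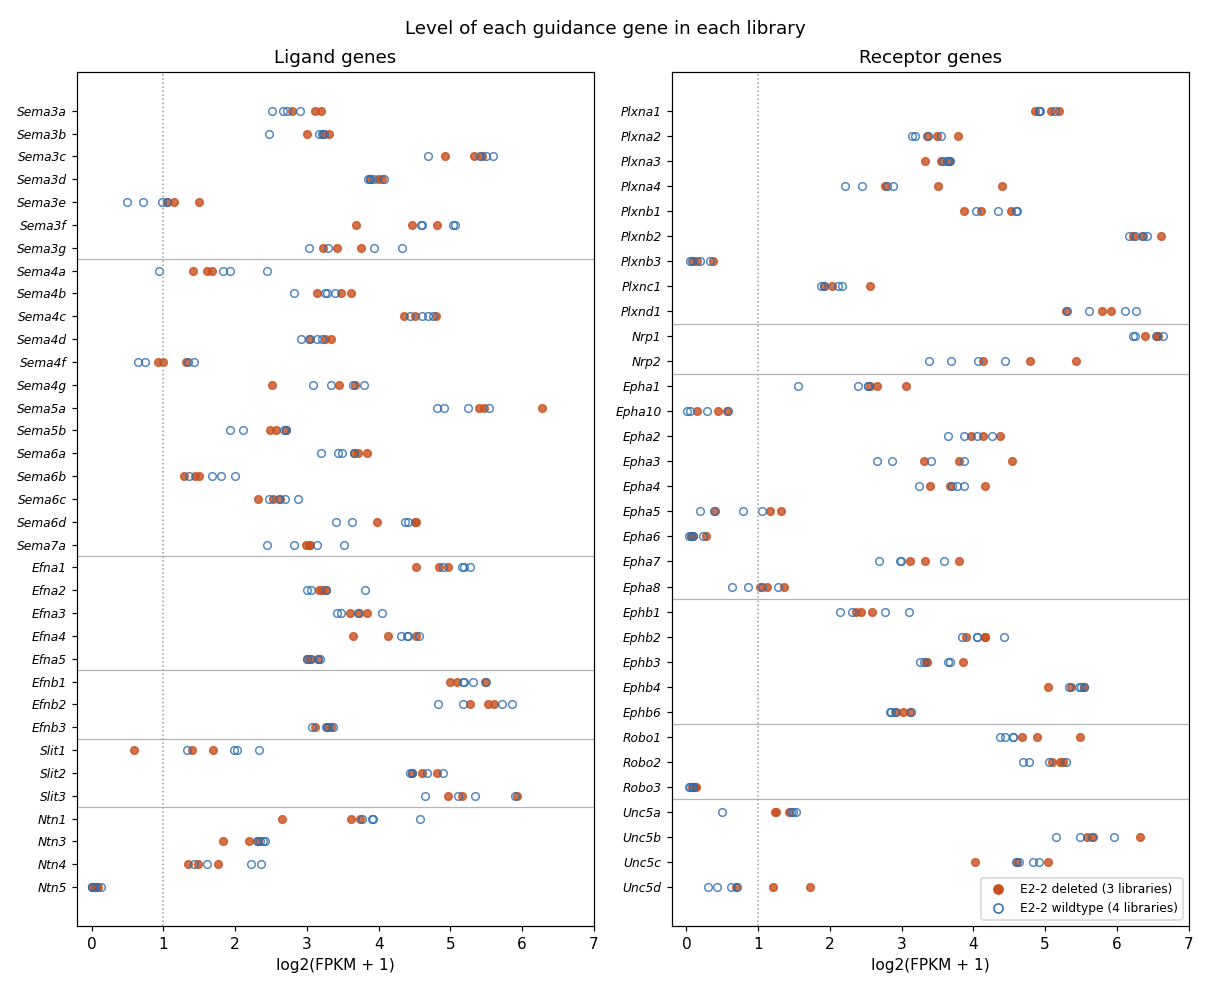
Level of each of the 67 guidance genes in each library on the log2(FPKM + 1) axis, ligand genes left and receptor genes right, grouped by family. Filled orange points are the 3 E2-2 deleted libraries, open blue points the 4 E2-2 wildtype libraries, and the dotted line marks 1 FPKM. Nrp1 and Plxnb2 lie furthest right, and the colours overlap in all but 5 of the 60 genes tested.

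The libraries differed in the levels of cell type markers, and by limma 0 genes of any marker list passed an adjusted p of 0.05 between genotypes. Summed FPKM of 8 nephron progenitor genes was 299.9, 58.7 and 199 in E2-2 deleted replicates 1 to 3 and 254, 153, 279 and 344 in E2-2 wildtype replicates 1 to 4. Six2, the defining gene of that list, was at 2.69 FPKM in deleted replicate 2 and at 29.0 to 74.8 in the other 6. The sum of 9 ureteric bud genes was lowest in wildtype replicate 3 (84.1, against 170 to 318 in the others), as was that of 10 endothelial genes (258, against 349 to 569). The 12 neuronal genes summed to 465 in deleted replicate 3 and 366 in wildtype replicate 1, and to 63.7 to 191 elsewhere. Wnt feedback genes, 10 in all, summed to 312, 1171 and 497 in the deleted and 245, 245, 154 and 161 in the wildtype libraries. In bulk RNA, fewer cells of a type and less RNA per cell cannot be told apart. Inferred depth was 14.6 to 26.6 mega-fragments per library. The deposited names of 4 libraries begin with BI (the first and second replicate of each genotype), and the other 3 begin with BM; the labels do not say what the letters stand for.

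**Figure D2:**
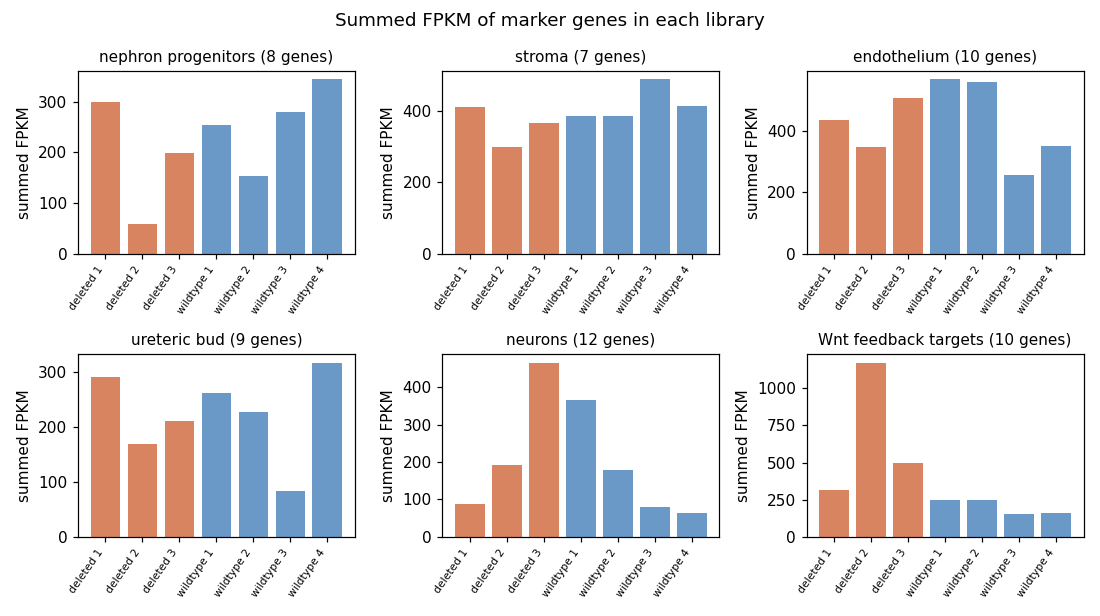
Summed FPKM of 6 marker lists in each library, orange for E2-2 deleted and blue for E2-2 wildtype. Deleted replicate 2 has the lowest nephron progenitor sum (58.7) and the highest Wnt feedback sum (1171), and wildtype replicate 3 the lowest ureteric bud (84.1) and endothelial (258) sums.

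No guidance gene passed the test between genotypes. With limma on log2(FPKM + 1), adjusted over 13469 genes, 0 of the 60 had an adjusted p under 0.05, as did 0.0% of all genes tested; the smallest adjusted p of a member was 0.795. Counted without adjustment, 5 members had a p under 0.05, against 4.49% of all genes tested. Of these, Robo1, Plxna4 and Nrp2 were higher in the deleted libraries (3 of 60, against 3.29% of all genes), and Efna1 and Ntn1 were lower (2 of 60, against 1.2%). The deleted libraries all lay above the wildtype libraries, without overlap, for Robo1, Sema6a, Sema3e and Epha1 (4 of 60, against 2.84%) and below for Ntn1 (1 of 60, against 2.05%). These counts are of a few genes each, and no test compared them with the background. Without deleted replicate 2, Robo1 alone of the 59 members then tested had an unadjusted p under 0.05, against 1.72% of all genes, and Robo1, Sema6a and Epha1 were above without overlap (3 of 59, against 4.01%), with Ntn1 below (1 of 59, against 2.61%). Without deleted replicate 1, 9 of 60 had an unadjusted p under 0.05, and the share of all genes was then 10.9%.

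A positive difference, higher in the deleted libraries, was found in 35 of the 60 members, where 39.3% of all genes tested were positive. The members' median difference was 0.05 on the log2(FPKM + 1) scale, and that of all genes was -0.05. Receptor genes were positive in 19 of 26 (median 0.09) and ligand genes in 16 of 34 (median -0.02). With deleted replicate 2 left out, 36 of 59 members were positive, and the share of all genes was 53.0%. With a weight per library 32 of 60 members were positive (53.3%), against 50.5% of all genes, with a median of 0.01. Without wildtype replicate 4 the count was 30 of 60, against 42.1% of all genes, with a median of 0.00. The difference between receptor and ligand genes was not tested.

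**Figure D3:**
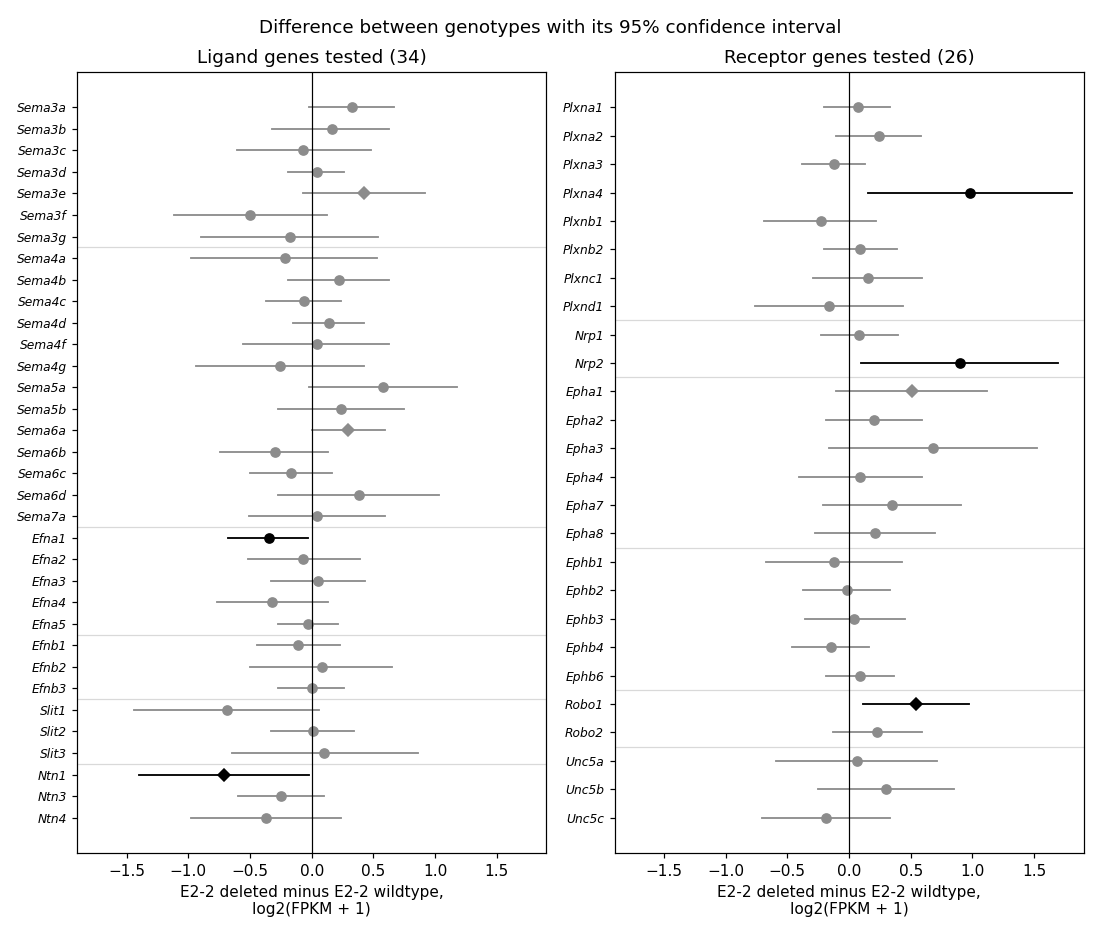
Difference of each tested guidance gene, E2-2 deleted minus E2-2 wildtype, on the log2(FPKM + 1) scale with its 95% confidence interval from limma, ligand genes left and receptor genes right. Black marks the 5 genes with an unadjusted p under 0.05, and diamonds mark the 5 genes whose groups did not overlap. Robo1 and Ntn1 carry both marks.

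Promoters were read for 58 of the 67 genes from RefSeq (GRCm38.p6), as the 250 bases before the start. The tables' own positions carry no build and cannot be set beside these. Printed are the 4 promoters, among the 8 genes with an unadjusted p under 0.05 or groups without overlap, that held a motif of the kind that E2-2 or the partners of beta-catenin bind: the E boxes CAGCTG and CACCTG and the TCF/LEF motifs CTTTGAT and CTTTGAA, each on either strand. They run 5′ to 3′ on the gene's strand with the motif in capitals, from chr16:72662899-72663148 (plus strand) for Robo1, chr1:62703067-62703316 (plus) for Nrp2, chr5:14025026-14025275 (plus) for Sema3e and chr6:42373269-42373518 (minus) for Epha1.
Robo1: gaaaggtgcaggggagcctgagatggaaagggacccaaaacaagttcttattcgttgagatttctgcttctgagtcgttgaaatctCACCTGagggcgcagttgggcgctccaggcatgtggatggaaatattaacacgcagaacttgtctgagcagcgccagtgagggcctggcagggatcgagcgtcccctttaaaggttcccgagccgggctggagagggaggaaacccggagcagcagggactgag
Nrp2: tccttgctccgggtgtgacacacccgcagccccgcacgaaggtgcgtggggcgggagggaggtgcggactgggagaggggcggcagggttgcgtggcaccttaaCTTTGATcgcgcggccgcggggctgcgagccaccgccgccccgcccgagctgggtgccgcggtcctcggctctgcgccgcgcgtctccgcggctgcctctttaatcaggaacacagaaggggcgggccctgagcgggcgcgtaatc
Sema3e: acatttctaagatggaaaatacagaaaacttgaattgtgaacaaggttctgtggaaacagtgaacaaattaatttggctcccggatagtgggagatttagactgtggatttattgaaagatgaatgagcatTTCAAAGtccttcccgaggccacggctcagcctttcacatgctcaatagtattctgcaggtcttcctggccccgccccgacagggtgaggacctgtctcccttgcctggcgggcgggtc
Epha1: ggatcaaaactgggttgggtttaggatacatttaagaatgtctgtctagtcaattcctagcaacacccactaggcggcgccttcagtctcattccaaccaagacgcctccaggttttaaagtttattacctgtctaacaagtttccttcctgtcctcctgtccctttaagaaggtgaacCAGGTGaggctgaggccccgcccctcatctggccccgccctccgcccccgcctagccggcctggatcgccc

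Robo1 held CACCTG starting 164 bases before the start and Epha1 CAGGTG, its other strand, 71 bases before it. Nrp2 held CTTTGAT 146 bases and Sema3e TTCAAAG, the other strand of CTTTGAA, 119 bases before the start. Of the 74 windows of guidance genes (some genes have several starts), 21 held an E box, or 28.4%, against 27.7% of all 32851 windows in the table. A TCF/LEF motif was in 3 of the 74 (Nrp2, Sema3e and Epha2), or 4.05%, against 7.48% of all windows. Both strands were read, and no window of a guidance gene held 2 different motifs. A match describes these letters only, and binding was not measured.

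Among the Robo receptors, Robo1 was the gene whose deleted libraries all exceeded the wildtype ones. Robo1 (chromosome 16, 72663394 to 73046345) encodes a Slit receptor of many mesenchymal and endothelial cells. Its FPKM was 24.5, 43.9 and 28.6 in the deleted libraries, against 20.8, 22.4, 19.6 and 22.4 in the wildtype ones. Deleted replicate 2 stood well above the other 6, and deleted replicate 1 lay only just above the wildtype libraries. The deleted libraries averaged 32.3 ± 10.2 (SD, n = 3) and the wildtype libraries 21.3 ± 1.34 (SD, n = 4). On the log2 scale the difference was 0.54 (SE 0.19; 0.58 within BI, 0.43 within BM; limma adjusted p = 0.795, unadjusted p = 0.0200). The exact 2-sided permutation p was 0.0286, the smallest that 7 libraries split 3 against 4 can give. Without deleted replicate 2 the difference was 0.30 (limma unadjusted p = 0.0250), and the unadjusted p ranged from 0.00400 to 0.0484 over 14 alternatives.

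Robo2, the Slit2 receptor of nephrogenic mesenchyme, was the most abundant member of its family. Its FPKM was 37.2, 33.1 and 35.8 in the deleted and 32.3, 26.4, 24.7 and 38.2 in the wildtype libraries. The groups overlapped, with the highest value in wildtype replicate 4. The difference was 0.23 (SE 0.15, 95% confidence interval -0.13 to 0.59). The nephron progenitor sum was lowest in deleted replicate 2 (58.7), and Robo2 was lowest in wildtype replicate 3 (24.7 FPKM). The part of nephron progenitors in the level of Robo2 was not tested. The ratio of Robo1 to Robo2 was 1.32 in deleted replicate 2 and 0.585 to 0.846 in the other 6 libraries.

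Their ligands showed no common direction. Slit3 was the most abundant Slit gene, at 30.2, 59.7 and 34.8 FPKM in the deleted and 33.5, 39.4, 58.9 and 24.0 in the wildtype libraries. Deleted replicate 2 and wildtype replicate 3, on opposite sides of the comparison, were the highest. The difference was 0.10 (SE 0.33, interval -0.65 to 0.86). Slit2 was at 21.1, 27.1 and 23.2 FPKM against 21.1, 24.6, 28.8 and 20.6, with a difference of 0.01 (SE 0.14, interval -0.33 to 0.34). Slit1, the least abundant, was at 2.23, 0.502 and 1.63 FPKM against 3.08, 1.52, 2.94 and 4.01. Its groups overlapped through wildtype replicate 2, and its difference was -0.69 (SE 0.32), or -0.37 without deleted replicate 2.

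Nrp2 and Plxna4, which encode a co-receptor and a receptor for class 3 semaphorins, had the largest positive differences of the tested members. Nrp2 (chromosome 1, 62749891 to 62865266) was at 16.5, 42.1 and 26.7 FPKM in the deleted and 15.7, 20.6, 11.8 and 9.41 in the wildtype libraries. Deleted replicates 2 and 3 were above all wildtype libraries, and deleted replicate 1 was below wildtype replicate 2. The deleted libraries averaged 28.4 ± 12.9 (SD, n = 3) and the wildtype libraries 14.4 ± 4.91 (SD, n = 4). On the log2 scale the difference was 0.90 (SE 0.34; 0.53 within BI, 1.26 within BM; limma unadjusted p = 0.0313, exact permutation p = 0.114). Without deleted replicate 2 the difference was 0.57 (limma unadjusted p = 0.112), and without deleted replicate 3 or wildtype replicate 3 or 4 the unadjusted p was 0.0691 to 0.0742. With all 7 libraries and no filter on low values, the unadjusted p of Nrp2 was not under 0.05 either. Nrp1, the other neuropilin gene, was at 82.6, 94.2 and 92.9 FPKM against 92.3, 99.4, 74.1 and 75.4, a difference of 0.08 (SE 0.14, interval -0.23 to 0.40).

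Plxna4 (chromosome 6, 32094559 to 32538192) was at 5.84, 20.04 and 10.4 FPKM in the deleted and 6.33, 5.92, 4.43 and 3.65 in the wildtype libraries. As for Nrp2, deleted replicates 2 and 3 were the highest and deleted replicate 1 lay among the wildtype libraries. The deleted libraries averaged 12.1 ± 7.25 (SD, n = 3) and the wildtype libraries 5.08 ± 1.25 (SD, n = 4). On the log2 scale the difference was 0.98 (SE 0.36; 0.75 within BI, 1.18 within BM; limma unadjusted p = 0.0267, exact permutation p = 0.0857). Leaving out deleted replicate 2, it was 0.56 (limma unadjusted p = 0.0746), and without deleted replicate 3 or wildtype replicate 3 or 4 the unadjusted p was 0.0554 to 0.0640. With all 7 libraries and no filter on low values, the unadjusted p of Plxna4 was not under 0.05 either. The Wnt feedback sum was likewise highest in deleted replicate 2 (1171) and next in deleted replicate 3 (497); deleted replicate 1 followed them for that sum (312) but lay below a wildtype library for Nrp2 and for Plxna4. Wif1 alone was at 611 and 258 FPKM in deleted replicates 2 and 3. The 10 genes did not all follow the sum. Rnf43 and Sp5 had another order among the deleted libraries, and Dkk1 was highest in wildtype replicate 2 (12.9 FPKM). The part of Wnt feedback in the differences of Nrp2 and Plxna4 was not tested.

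The other plexin genes differed by -0.23 (Plxnb1) to 0.24 (Plxna2), none at an unadjusted p under 0.05. Plxnb2, a receptor for class 4 semaphorins and the most abundant plexin gene, was at 80.7, 97.0 and 73.5 FPKM in the deleted and 70.9, 81.7, 84.8 and 75.0 in the wildtype libraries. Plxnd1, which guides endothelial cells, was at 59.4, 38.2 and 54.3 FPKM against 68.5, 75.7, 38.4 and 48.0. Wildtype replicates 1 and 2 were the highest for Plxnd1, and deleted replicate 2 and wildtype replicate 3 the lowest. The sum of 10 endothelial genes was likewise highest in wildtype replicates 1 and 2 (569 and 560) and lowest in wildtype replicate 3 and deleted replicate 2 (258 and 349). The 10 genes did not follow 1 order. Pecam1, Cdh5, Kdr, Tie1, Esam, Cldn5 and Eng were highest in wildtype replicate 1 or 2, and Tek, Emcn and Plvap in deleted replicate 3. The part of the endothelium in the level of Plxnd1, or of any gene set beside this sum below, was not tested. The difference of Plxnd1 was -0.16 (SE 0.26), with -0.59 within BI and 0.33 within BM.

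**Figure D4:**
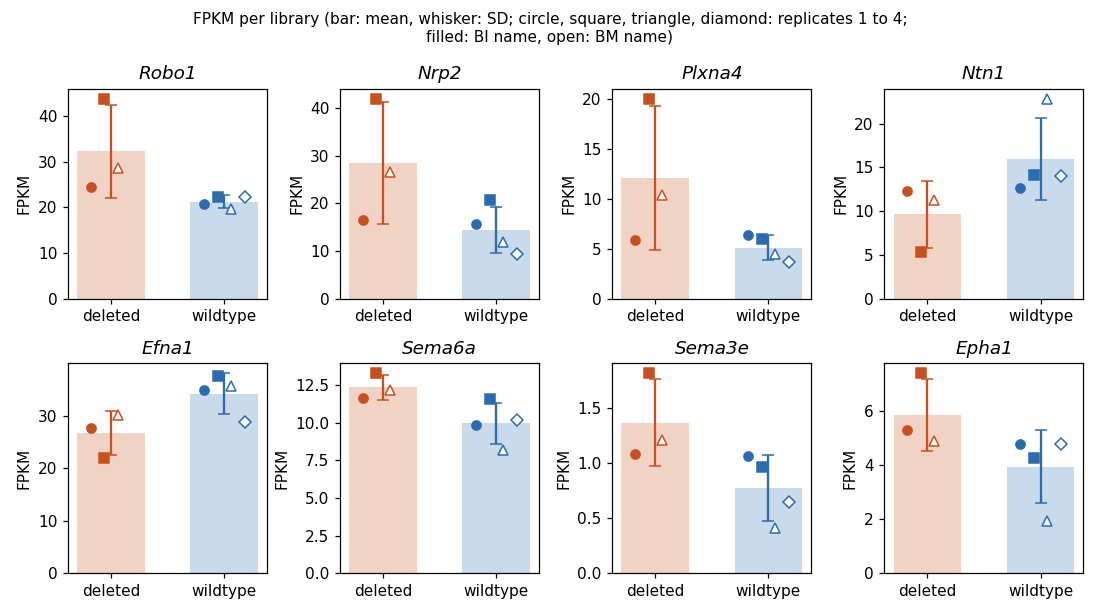
FPKM of 8 guidance genes in each library, with the bar at the mean of a genotype and the whisker at 1 SD (3 E2-2 deleted libraries in orange, 4 E2-2 wildtype in blue). Symbols mark replicates and open symbols the BM names; the square of deleted replicate 2 is the highest point of Robo1, Nrp2, Plxna4, Sema6a, Sema3e and Epha1 and the lowest of Ntn1 and Efna1.

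Of the class 3 semaphorin ligands, Sema3e was higher in every deleted library, at a level near the filter. Sema3e (chromosome 5, 14025276 to 14256689), the ligand of Plxnd1, was at 1.08, 1.81 and 1.21 FPKM in the deleted and 1.06, 0.964, 0.411 and 0.646 in the wildtype libraries. Deleted replicate 1 and wildtype replicate 1 were nearly equal. The difference was 0.42 (SE 0.21; limma unadjusted p = 0.0856, exact permutation p = 0.0571). When deleted replicate 2 was left out, its mean was under 1 FPKM and it was not tested. Sema3c, the most abundant member of the class, was at 42.6, 29.5 and 39.0 FPKM against 41.6, 47.5, 24.8 and 44.3, and Sema3a at 5.93, 8.18 and 7.61 against 6.52, 5.62, 4.71 and 5.34. Neither pair of groups was separated: the difference was -0.07 (SE 0.24) for Sema3c and 0.33 (SE 0.15; exact permutation p = 0.0857) for Sema3a. Sema3f, a ligand of Nrp2, was at 27.2, 11.9 and 21.2 FPKM against 23.0, 23.2, 32.4 and 31.7, a difference of -0.50 (SE 0.27). Deleted replicate 2 thus held the lowest Sema3f and the highest Nrp2. Sema3b, Sema3d and Sema3g differed by 0.16, 0.04 and -0.18. Sema3g, a semaphorin of arterial endothelium, was highest in wildtype replicates 1 and 2 (14.2 and 19.1 FPKM), as was the endothelial sum.

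Of the 13 membrane-bound semaphorin genes (classes 4 to 7), 8 had a positive and 5 a negative difference. Sema5a, the most abundant, was at 43.1, 76.5 and 41.1 FPKM in the deleted and 37.0, 45.7, 29.0 and 27.1 in the wildtype libraries. Wildtype replicate 2 lay above deleted replicates 1 and 3, and deleted replicate 2 far above all others. The difference was 0.58 (SE 0.26; exact permutation p = 0.143), or 0.30 without deleted replicate 2. Sema6a, a ligand of Plxna2 and Plxna4, was at 11.6, 13.3 and 12.1 FPKM against 9.81, 11.6, 8.19 and 10.2, a difference of 0.29 (SE 0.13; limma unadjusted p = 0.0514, exact permutation p = 0.0571). Its groups met at 11.6 FPKM and overlapped once the libraries were scaled by median of ratios. The other 11 genes differed by -0.30 (Sema6b) to 0.38 (Sema6d). Sema6d was at 9.58 and 11.4 FPKM in wildtype replicates 3 and 4 and at 14.8 to 21.9 in the other 5, so its difference was -0.14 within BI and 0.99 within BM.

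Among the netrins, Ntn1 was the gene whose deleted libraries all lay under the wildtype ones. Ntn1 (chromosome 11, 68022866 to 68200328) encodes netrin-1, a secreted ligand of Dcc, neogenin and Unc5 receptors. Its FPKM was 12.3, 5.29 and 11.3 in the deleted libraries, against 12.6, 14.1, 22.9 and 14.0 in the wildtype ones. Deleted replicate 1 and wildtype replicate 1 were nearly equal, and the extremes were deleted replicate 2 and wildtype replicate 3. The deleted libraries averaged 9.62 ± 3.79 (SD, n = 3) and the wildtype libraries 15.9 ± 4.69 (SD, n = 4). On the log2 scale the difference was -0.71 (SE 0.30; -0.65 within BI, -0.63 within BM; limma unadjusted p = 0.0460, exact permutation p = 0.0286). The unadjusted p was not under 0.05 with no filter on low values, with the name prefix as a term or with a weight per library. Without deleted replicate 2 the difference was -0.37 (limma unadjusted p = 0.147), and without wildtype replicate 3 it was -0.53 (unadjusted p = 0.106). Those 2 libraries also held the lowest and the highest sum of 7 stromal genes (298 and 488, against 365 to 414 in the others). The 7 genes did not follow 1 order: Foxd1, which marks renal stroma, was at 2.30 FPKM in deleted replicate 2 and 26.7 in wildtype replicate 3, Pdgfra at 69.7 and 50.6, Pdgfrb at 74.2 and 62.7, and Tbx18 at 11.1 and 11.7. The part of the stroma in the difference was not tested.

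The other netrin genes tested were also on the negative side, and neither passed an unadjusted p of 0.05. Ntn4, a basement membrane netrin, was at 1.55, 2.40 and 1.79 FPKM in the deleted and 1.68, 3.64, 4.11 and 2.05 in the wildtype libraries. Its groups overlapped, with a difference of -0.37 (SE 0.26, interval -0.98 to 0.24). Ntn3 was at 2.55 to 4.01 against 3.93 to 4.35 FPKM, a difference of -0.25 (SE 0.15).

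The netrin receptor genes differed in direction. Unc5b, a receptor of endothelial and mesenchymal cells, was at 47.0, 79.2 and 49.8 FPKM in the deleted and 49.2, 61.0, 43.9 and 34.5 in the wildtype libraries. Unc5c was at 31.8, 15.2 and 23.4 against 27.4, 24.0, 23.2 and 29.2. Deleted replicate 2 was the highest library for Unc5b and the lowest for Unc5c, and the differences were 0.30 (SE 0.24) and -0.19 (SE 0.22). Without that library they were 0.07 and 0.08. Unc5a differed by 0.06 (SE 0.28). Unc5d, under the filter, was at 0.621, 2.30 and 1.31 FPKM against 0.344, 0.637, 0.544 and 0.234, on 48.0 to 369 inferred fragments per library. Its groups overlapped between deleted replicate 1 and wildtype replicate 2, and with no filter its difference was 0.69 (SE 0.25; limma adjusted p = 0.880). Dcc, which is not among the 67 genes, was higher in every deleted library, at 1.03, 3.32 and 1.61 FPKM against 0.784, 0.845, 0.481 and 0.706 (difference 0.74, SE 0.27, limma adjusted p = 0.795).

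All 6 EphA receptor genes tested had a positive difference, against 39.3% of all genes tested, and none passed an unadjusted p of 0.05. The count was 5 of 6 without deleted replicate 1 (38.8% of all genes) and without wildtype replicate 3 (35.7%). Epha1 (chromosome 6, 42308486 to 42323267), an Eph receptor of epithelia, was higher in every deleted library, at 5.28, 7.37 and 4.87 FPKM against 4.77, 4.25, 1.95 and 4.75. Wildtype replicate 3, with the lowest ureteric bud sum, was far below the others, and deleted replicate 3 lay just above wildtype replicates 1 and 4. The difference was 0.51 (SE 0.27; limma unadjusted p = 0.0951, exact permutation p = 0.114), or 0.27 without wildtype replicate 3. The groups overlapped once the libraries were scaled by median of ratios. Epha3, a mesenchymal receptor, was among the 4 most variable members, at 8.89, 22.1 and 12.9 FPKM against 13.6, 9.64, 6.25 and 5.32. Its difference was 0.68 (SE 0.36), or 0.35 without deleted replicate 2. Epha2, the most abundant of the family, was at 16.5, 19.8 and 14.7 against 15.6, 18.2, 11.5 and 13.7 (difference 0.20, SE 0.17). Epha4, Epha7 and Epha8 differed by 0.09, 0.35 and 0.21. Epha5, under the filter, was at 0.320, 1.24 and 1.495 FPKM against 1.08, 0.721, 0.140 and 0.301. It was above 1 FPKM in deleted replicates 2 and 3 and wildtype replicate 1, the libraries with the 3 highest neuronal sums (191, 465 and 366), and the part of neurons in its level was not tested.

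Of the 5 ephrin-A ligand genes, 4 had a negative difference, 2 of them within 0.07 of 0. Efna1 (chromosome 3, 89075652 to 89084873), the main ligand of Epha2, was at 27.7, 22.0 and 30.2 FPKM in the deleted and 34.8, 37.5, 35.6 and 28.7 in the wildtype libraries. Deleted replicate 3 lay above wildtype replicate 4, so the groups overlapped. The deleted libraries averaged 26.6 ± 4.19 (SD, n = 3) and the wildtype libraries 34.2 ± 3.83 (SD, n = 4). On the log2 scale the difference was -0.35 (SE 0.14; -0.53 within BI, -0.08 within BM; limma unadjusted p = 0.0360, exact permutation p = 0.0857). It was -0.23 (limma unadjusted p = 0.114) without deleted replicate 2. Efna4 differed by -0.32 (SE 0.19), with its lowest level in deleted replicate 2 (11.4 FPKM). Efna2, Efna3 and Efna5 differed by -0.07, 0.05 and -0.03.

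EphB receptor and ephrin-B ligand genes differed little, by -0.15 (Ephb4) to 0.09 (Ephb6). Ephb2 and Ephb3 are known targets of beta-catenin in the gut, and the groups overlapped for both. Ephb2 was at 16.9, 14.0 and 16.8 FPKM in the deleted and 15.6, 13.3, 20.5 and 15.6 in the wildtype libraries, a difference of -0.02 (SE 0.15, interval -0.37 to 0.33). Ephb3 was at 9.18, 13.5 and 9.15 against 8.95, 11.7, 11.6 and 8.53, a difference of 0.04 (SE 0.18, interval -0.36 to 0.45). The direction of both turned under several alternatives. Axin2, a Wnt feedback gene, was at 32.0, 94.9 and 37.9 against 20.2, 26.4, 18.6 and 19.9 FPKM in the same libraries. Its groups did not overlap, and its limma adjusted p was 0.795. Of the 10 Wnt feedback genes, 8 lay above without overlap, against 2.84% of all genes tested. That list was chosen with earlier results of these data known, so its count only describes these libraries and tests nothing. The groups overlapped for Sp5 (difference 0.14) and Dkk1 (-0.09). Ephb4, a receptor of venous endothelium, was the most abundant of the family, at 45.5, 31.8 and 40.2 FPKM against 39.5, 45.7, 43.2 and 44.3 (difference -0.15, SE 0.13). Ephb1 and Ephb6 differed by -0.12 and 0.09.

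Efnb2, the arterial ligand of Ephb4, was at 45.2, 37.7 and 47.6 FPKM in the deleted and 51.6, 57.0, 27.4 and 34.98 in the wildtype libraries. The wildtype libraries spanned the whole range, with wildtype replicates 1 and 2 the highest, as in the endothelial sum. The difference was 0.08 (SE 0.25), made of -0.38 within BI and 0.60 within BM. Efnb1 was at 43.8, 33.1 and 30.7 FPKM against 35.5, 35.2, 44.0 and 38.9 (difference -0.11, SE 0.14), and Efnb3 differed by 0.00 (SE 0.12).

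**Figure D5:**
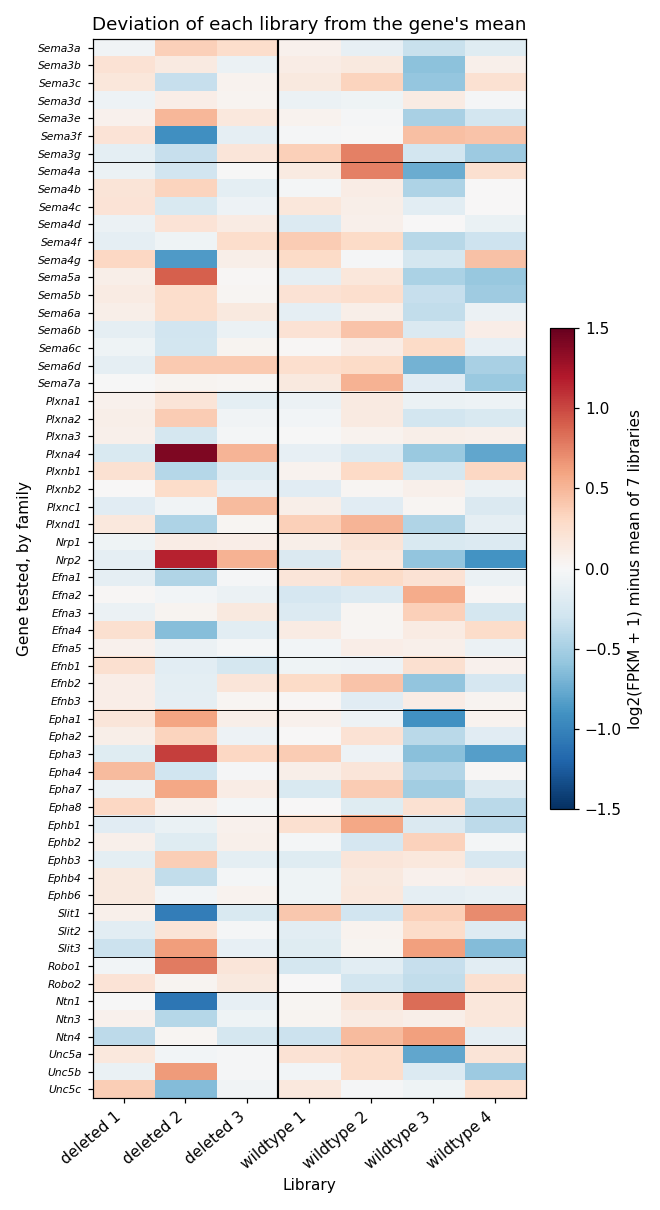
Deviation of each library from the mean of the 7 libraries, on the log2(FPKM + 1) scale, for the 60 guidance genes tested, grouped by family; red is above and blue below the mean. The column of deleted replicate 2 holds the highest level of 21 genes (35%, against 17.2% of all genes tested) and the lowest of 16 (26.7%, against 44.4%). That of wildtype replicate 3 holds the lowest of 20 (33.3%, against 21.4%).

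Single libraries held many of the highest and lowest levels. Deleted replicate 2 was the highest of the 7 libraries for 21 of the 60 members (35%, against 17.2% of all genes tested) and the lowest for 16 (26.7%, against 44.4%). Wildtype replicate 3 was the lowest for 20 members (33.3%, against 21.4% of all genes), and wildtype replicate 4 for 15 (25%, against 10.4%). Wildtype replicate 2 was the highest for 14 (23.3%, against 11.9%). Deleted replicate 1 was the highest for 5 (8.33%, against 8.16% of all genes) and the lowest for 1 (1.67%, against 6.08%). The 4 tested members that varied most over the libraries were Plxna4, Nrp2, Epha3 and Slit1, and each had its extreme level in deleted replicate 2.

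Partners of the guidance receptors inside the cell and at its surface were read from a separate list of 59 genes, of which 58 matched an entry and 55 were tested. Of these, 37 had a positive difference (median 0.11), against 39.3% of all genes tested. At an unadjusted p under 0.05, 4 were higher (against 3.29% of all genes) and 0 lower (against 1.2%), and by limma 0 passed the adjustment. The 4 were Dcc; Chn2, a Rac-inactivating chimaerin (difference 0.56); Flrt2 (0.36) and Flrt3 (0.54), which encode ligands of Unc5 receptors. Flrt2 was at 29.9, 37.0 and 32.3 FPKM in the deleted and 25.7, 30.4, 24.5 and 21.8 in the wildtype libraries, and wildtype replicate 2 lay above deleted replicate 1. Neo1, the neogenin gene, differed by 0.20 (SE 0.11). The effectors Srgap1, Srgap2, Trio and Fyn, which link Robo and netrin receptors to the cytoskeleton, differed by -0.02, -0.03, 0.00 and 0.05. The count of 4 was 1 without deleted replicate 2, 0 without wildtype replicate 3 and 9 when deleted replicate 1 was left out; the share of all genes was then 1.39%, 2.35% and 6.18%.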

How the data were processed

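Per the labels' protocols, poly-A RNA of the 7 kidney cultures went into Illumina TruSeq libraries. The authors deposited 1 table per library with the FPKM of each gene, the bounds of its interval and a status, per the file headers. Per the submitters' processing notes, which give no roles, the tools were TopHat2 2.0.4, Cufflinks 2.0.2 and CASAVA 1.8.2. No genome build or annotation is named in the sources used here, so positions of genes are printed as the tables give them, counted from 1, with no build. No strand setting is stated, so a gene and an overlapping gene on the other strand cannot be told apart.

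Entries of 1 symbol were summed; each guidance gene had 1 entry, with an accepted status in all 7 tables. A gene was dropped where any table marked its quantification as failed or short of data, or where it spanned under 200 bases. This left 22363 genes, of which 13469 had a mean of at least 1 FPKM and were tested as log2(FPKM + 1), which understates the difference of low genes, with limma 3.58.1 in R 4.3.3 (empirical Bayes with a trend, 2-sided, Benjamini-Hochberg over all genes tested, threshold 0.05). The test was checked on simulated data. For single genes an exact 2-sided permutation test (35 assignments of 3 and 4 libraries) is given too. The tables hold no counts: the number of fragments behind a value was inferred from the interval as the square of 2 times the FPKM over the distance to the upper bound. This gave numbers within 0.05 of a whole number for 78.9% to 80.2% of genes with a single start and under 300 fragments.

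Groups follow the genotype label, and replicate numbers only name libraries in deposit order, with no pairing. Nothing in the labels says that libraries came from separate animals, so p-values measure the spread between these libraries, which may be technical. The genes given per library were those of a fixed list, the most abundant of each family, those with an unadjusted p under 0.05 or groups without overlap, and the 4 most variable. Sema3f, Sema3g, Sema6d, Efna4, Epha5, Unc5d and the genes outside the 67 were described after their values were seen. Members and lists were chosen with earlier results of these data known. Alternatives were another pseudocount, other filters, scaling, the name prefix as a term, weights per library and leaving out each library.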

Additional observations from a re-analysis of the deposited data

Results flagged for a closer look

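Within the 4 wildtype libraries, 4 of the 60 guidance genes tested had a library whose gap to the nearest other, over the range, exceeded Dixon's 95% critical value, where chance alone gives about 1 in 20 genes. Wildtype replicate 3 was low for Epha1, at 1.95 FPKM against 4.25 to 4.77 in the other 3. It was also low for Sema3b, at 4.57 against 7.97 to 8.43, and for Unc5a, at 0.404 against 1.74 to 1.88. Wildtype replicate 2 was high for Plxna1, at 34.3 against 29.2 to 29.4. Wildtype replicate 3 also had the lowest sums of ureteric bud and endothelial genes (84.1 and 258 FPKM), and their part in these values was not tested.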

How the results depend on the processing

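By limma, 0 guidance genes passed an adjusted p of 0.05 in any of the 14 alternatives (smallest adjusted p 0.358), so no call was gained or lost. The number at an unadjusted p under 0.05 was 5, and 1 to 9 when 1 library was left out, where the share of all genes ran from 1.72% to 10.9%. Higher in the deleted libraries it was 3, with a weight per library 5 (6.01% of all genes), and 1 to 6 when 1 library was left out (1.39% to 6.18%). With no filter it was again 3 (3.11%), but these were Robo1, Sema6a and Unc5d, without Nrp2 and Plxna4. Lower it was 2 (1.2% of all genes), with no filter 1 (Efna1, 1.29%) and with the name prefix as a term 0 (0.861%). With a weight per library it was 1 (2.46%), and when 1 library was left out 0 to 4 (0.336% to 4.74%). The number without overlap on the higher side was 4 (2.84% of all genes). It was 2 of 47 at a mean of at least 5 FPKM (2.33%) and 2 with median-of-ratios scaling (2.92%). When 1 library was left out it was 3 to 9 (3.75% to 9.89%). On the lower side the number was 1 (2.05%), and 1 to 6 when 1 library was left out (2.61% to 10.6%). The lowest of these counts came without deleted replicate 2 (for the 1 higher at an unadjusted p, also without wildtype replicate 3). The highest came without deleted replicate 1, except the 6 higher at an unadjusted p, which came without wildtype replicate 2.

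Of 386 differences of 28 named genes, 366 kept their direction and 20, of 9 genes, turned; the cause was not tested. Ephb2 (-0.02) was 0.03 with scaling, 0.02 with the prefix term, 0.09 with weights and -0.10 to 0.09 when 1 library was left out. Ephb3 (0.04) was -0.02 with weights and -0.13 to 0.13 when 1 was left out. When 1 library was left out, Efnb2 ranged from -0.11 to 0.23, Plxnb2 from -0.02 to 0.18, Plxnd1 from -0.33 to 0.03, Sema3c from -0.27 to 0.08, Slit2 from -0.09 to 0.10, Slit3 from -0.18 to 0.32 and Unc5c from -0.43 to 0.08. Scaling moved the median of all genes from -0.05 to 0.00 and the members positive from 35 to 38 of 60 (49.0% of all genes). Sema3e could not be tested without deleted replicate 2 or 3. No paired analysis was possible because the replicate numbers only follow the order of deposit. Of the 60 members tested, 8 had a library with under 100 inferred fragments: Unc5a (39.1), Slit1 (45.0), Sema4f (53.0), Epha8 (54.0), Sema4a (67.5), Ntn4 (69.0), Sema3e (72.0) and Sema6b (91.1).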

Other observations

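Ratios within a library, chosen after their values were seen, describe how the levels of guidance genes stood to each other. Nrp2 stood to Nrp1 as 0.200, 0.447 and 0.288 in the deleted libraries and as 0.170, 0.208, 0.160 and 0.125 in the wildtype libraries, so deleted replicate 1 lay within the wildtype range. Plxna4 stood to Plxna1 as 0.179, 0.561 and 0.371 against 0.216, 0.172, 0.152 and 0.124. Nrp2 stood to its ligand gene Sema3f as 0.609, 3.54 and 1.26 against 0.681, 0.889, 0.365 and 0.296. In these 3 ratios deleted replicates 2 and 3 were above every wildtype library and deleted replicate 1 was not. Each is a level of Nrp2 or Plxna4, the tested members with the largest positive differences, so the shared order repeats that choice. The ratios of Robo1 to Robo2 and of Slit3 to Slit2 did not follow it. For Robo1 to Robo2, deleted replicate 3 (0.799) lay below wildtype replicate 2 (0.846). For Slit3 to Slit2, deleted replicate 3 lay below wildtype replicates 1, 2 and 3.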
